A study of Mus musculus with 4 samples.

Results

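AP-1 is a dimeric transcription factor, and 10 genes of its family (Fos, Fosb, Fosl2, Jun, Junb, Jund, Batf, Batf3, Atf3 and Maff) were followed in CD4+CD8+ double-positive thymocytes with and without the splicing factor gene Srsf1. The members were chosen by symbol from a family list drawn up with the KO against WT values of these libraries known, and all 10 were found among the 53715 genes of the deposited tables. Their differences between KO and WT are therefore given as a description, without a test of their own. Bulk RNA from double-positive cells sorted from the thymus of C57BL/6 mice of 6 to 8 weeks was sequenced in 2 WT and 2 KO libraries. The KO mice carried 1 LCKCre allele, in which the T-lineage Lck promoter drives Cre, together with floxed Srsf1 on both chromosomes (LCKCre/+ Srsf1fl/fl). The labels give the controls as WT only and do not say whether they carried Cre or floxed alleles, nor whether replicates came from separate mice, so the p-values below measure the spread between these libraries, which may be technical.

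AP-1 proteins bind DNA as pairs held together by a leucine zipper next to a basic region (bZIP). A Fos protein pairs with a Jun protein, Jun proteins can also pair with each other, and Batf and Atf3 replace Fos in pairs with Jun. Most of these genes are immediate early genes, which are transcribed within minutes of a T cell receptor signal or of stress, and in T cells AP-1 acts together with NFAT and IRF proteins on cytokine and activation genes.

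Each library held 35862730 to 37033180 counts, so that 1 count was worth 0.0270 to 0.0279 CPM. CPM is the count scaled to the library total and is the level used unless RPKM is named. Srsf1 was lower in both KO libraries, at 49.7 and 48.7 CPM against 134 and 123 CPM in WT, and 38.3% of the WT level remained in reads over the whole gene. The defining genes of the sorted population were present in every library: the summed level of 11 double-positive markers (among them Cd4, Cd8a, Rag1 and Dntt) was 8953 to 9357 CPM in WT and 12155 to 12563 CPM in KO. Of the lists for other cells, 6 B cell markers summed to 10.6 to 12.4 CPM in WT and 18.8 to 21.3 CPM in KO. The 7 single-positive markers summed to 212 to 222 CPM in WT and 185 to 201 CPM in KO, with Gzmk at 0 throughout. For 12 myeloid and dendritic markers the ranges were 18.6 to 22.7 and 14.7 to 23.3 CPM, and for 7 thymic epithelial markers 11.6 to 13.4 and 9.89 to 12.1 CPM, with Foxn1, Krt5 and Krt14 at 0. The 4 natural killer markers (3.43 to 5.53 against 3.56 to 4.01 CPM, Ncr1 at 0), 6 erythroid markers (at most 5.26 against 3.05 CPM), 5 double-negative markers (88.8 to 92.7 against 125 to 156 CPM) and 6 stromal and endothelial markers (125 to 139 against 121 to 122 CPM) completed the lists. The part of such cells in the values below was not tested, and in bulk RNA fewer cells of a type and less RNA per cell cannot be told apart.

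To show regulatory sequence of members that did and did not differ, the 250 bases before the transcription start are printed for Maff, which was lower in KO, and for Fos and Jun, which were not. They come from RefSeq promoter windows on GRCm38.p6, which were found for all 10 members (12 windows, 3 of them for Maff). Each runs 5′ to 3′ on the strand of its gene, and capitals mark the motifs searched on both strands.
Maff, the second of its 3 windows (chr15:79347270-79347519, plus strand): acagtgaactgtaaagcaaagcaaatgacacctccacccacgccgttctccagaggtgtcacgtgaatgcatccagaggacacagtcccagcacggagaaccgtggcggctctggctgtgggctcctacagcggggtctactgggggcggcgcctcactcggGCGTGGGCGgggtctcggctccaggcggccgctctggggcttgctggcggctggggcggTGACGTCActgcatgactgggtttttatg
Fos (chr12:85473640-85473889, plus strand): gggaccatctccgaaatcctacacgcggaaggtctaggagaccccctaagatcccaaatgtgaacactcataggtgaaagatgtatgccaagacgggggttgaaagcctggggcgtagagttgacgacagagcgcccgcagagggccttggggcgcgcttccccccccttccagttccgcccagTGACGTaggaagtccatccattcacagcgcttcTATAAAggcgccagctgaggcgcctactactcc
Jun (chr4:95052223-95052472, minus strand): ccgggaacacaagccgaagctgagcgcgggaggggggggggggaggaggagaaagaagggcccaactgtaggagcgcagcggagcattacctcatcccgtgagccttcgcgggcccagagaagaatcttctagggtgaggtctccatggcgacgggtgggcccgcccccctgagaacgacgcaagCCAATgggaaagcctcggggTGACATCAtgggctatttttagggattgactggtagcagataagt

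The windows of these genes shared some motifs and differed in others. In Fosl2, whose RefSeq window lies inside the first exon that GENCODE annotates and is not printed, the only match was GCGNGGGCG, the site bound by Egr proteins, at -79 to -71 from the start; 4.7% of the 32851 mouse promoter windows of this length hold it, and so did windows of Fosb and Maff. The printed Maff window held this motif at -88 to -80 and the full cAMP response element TGACGTCA at -29 to -22. This element overlaps matches to its core TGACGT and to the octamer TGANNTCA, and TGACGTCA is in 1.55% of all windows. The first Maff window, not printed, ends just before the GENCODE start and held none of the motifs searched. Fos held TGACGT (6.47% of all windows) at -66 to -61 and TATAAA (12.4%) at -33 to -28. Jun held TGANNTCA (11.9%) at -45 to -38 and CCAAT (33.8%) at -65 to -61. The third Maff window, not printed, held the same letters as Jun, TGACATCA, also at -45 to -38. TGACGT was also in the windows of Batf and Atf3, and TGANNTCA in that of Jund. The classical AP-1 heptamer TGANTCA, found in 6.75% of all windows, and the CArG box of serum response factor, found in 1.47%, were in 0 of the 12 member windows. The windows follow RefSeq starts: those of Jund and Junb end before the GENCODE start of the gene with a gap between them. Those of Fosb and Batf run across the GENCODE start into the gene. Those of Batf3 and Atf3 and 2 of the 3 for Maff lie inside the GENCODE gene. These matches describe letters within 250 bases and not binding.

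Of the 10 members, 9 passed the filter on low counts, and the edgeR quasi-likelihood fit over all 16588 genes tested called 4 of them (Fosl2, Jund, Batf and Maff) at an adjusted p under 0.05. All 4 were lower in KO. Across all genes tested 14.5% were called and 7.89% were called lower, but since the members were chosen on this contrast nothing is read from the comparison. The median log2 fold change of the 9 tested members was -0.87, against 0.00 for all genes tested. Both KO libraries lay below both WT libraries in 7 of the 9, where this held for 28.1% of all tested genes, and both lay above in 0 of the 9 (27.8% of all). Fos and Jun were the members whose groups overlapped. Without WT replicate 2 the fit called 2 members, Jund and Maff. The plot of members by library shows the 4 values behind each of these statements, and the plot of members among all genes sets their size against their abundance.

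**Figure D1:**
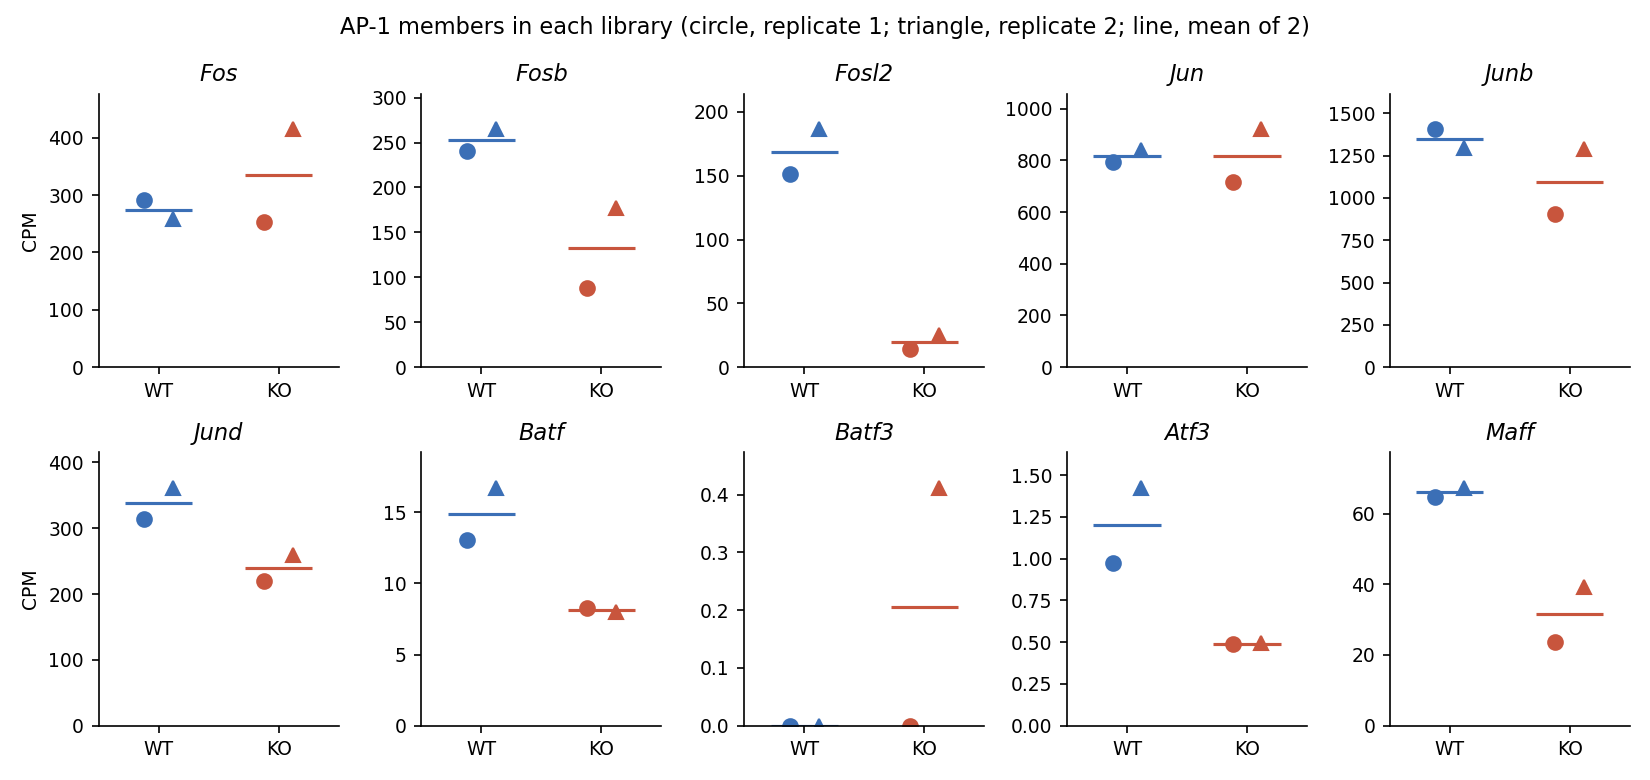
CPM (vertical axes, from 0, one scale per gene) of the 10 members in the WT and KO groups; circles are replicate 1, triangles replicate 2 and lines the mean of the 2 libraries. Fosl2 shows the widest gap between groups. In Fos, Fosb, Fosl2, Jun, Junb and Maff KO replicate 2 stands well above KO replicate 1, in Fosl2 by 1.76-fold.

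**Figure D2:**
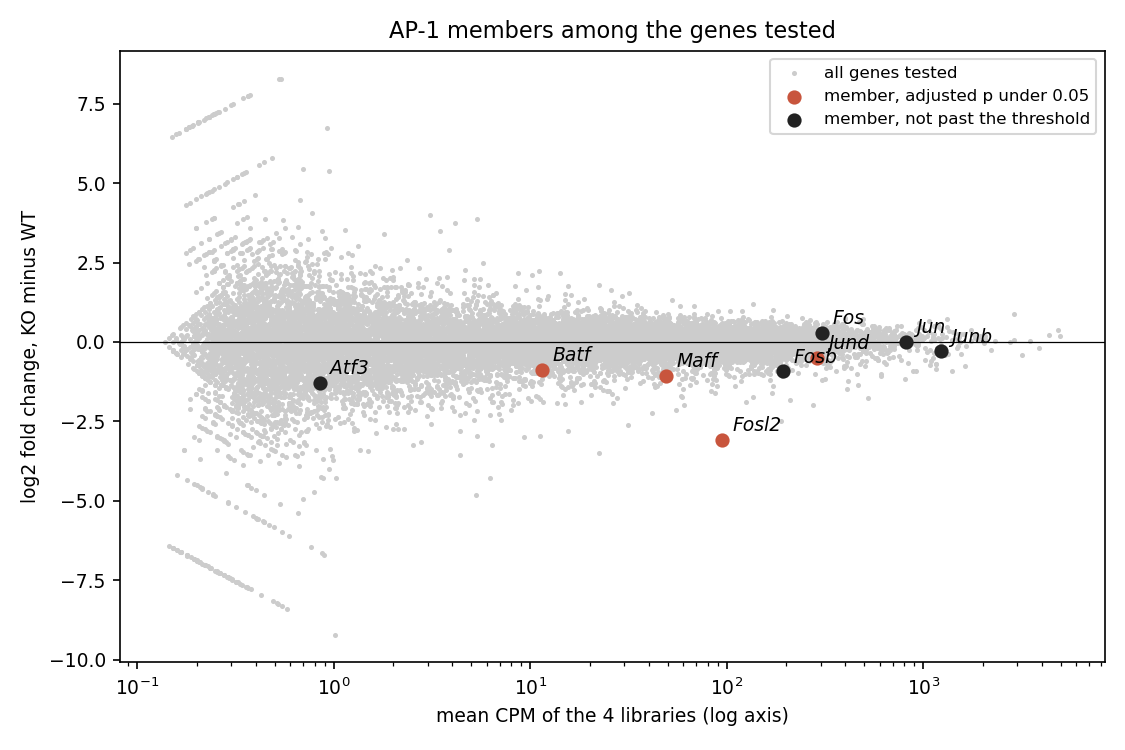
Log2 fold change, KO minus WT, against the mean CPM of the 4 libraries (log axis) for the 16588 genes tested (grey), with the 9 tested members in red where the adjusted p was under 0.05 and in black otherwise. Fosl2 lies at -3.08 and Fos and Jun lie near 0.

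Fosl2, whose protein Fra-2 lacks the strong activation domain of Fos, showed the largest change of the members. Its level was 152 and 186 CPM in the WT libraries and 14.4 and 25.4 CPM in the KO libraries. The groups did not overlap, and the lower WT library was still far above the higher KO library. KO replicate 2 was 1.76-fold above KO replicate 1. The KO level was 11.8% of the WT level, a log2 fold change of -3.08 (SE 0.32). Leaving out 1 library at a time moved this value between -2.71 and -3.55, and the call was lost without WT replicate 2 (-2.92). Fosl2 (ENSMUSG00000029135.10) lies on chromosome 5 at 32135801 to 32157842 (plus strand, GRCm38), and no other annotated gene shares its exons.

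Fos (ENSMUSG00000021250.13), the founding subunit of the family, did not follow Fosl2. It had 291 and 258 CPM in WT and 254 and 415 CPM in KO, so that KO replicate 1 lay just below both WT libraries and KO replicate 2 far above them. The log2 fold change was 0.29 (SE 0.30), not called. Leaving out KO replicate 2 turned it to -0.12, which was not called. Leaving out KO replicate 1 (0.61) or WT replicate 1 (0.38) gave a call of higher expression. Fosb (ENSMUSG00000003545.3; chromosome 7, 19302696 to 19310051, minus strand), the close relative of Fos that is also made as a shortened splice form, had 240 and 265 CPM in WT and 87.6 and 178 CPM in KO. Both KO libraries were below both WT libraries but differed from each other 2.03-fold, and the log2 fold change of -0.92 (SE 0.47) was not called. With 1 library left out it lay between -0.49 (without KO replicate 1) and -1.53 (without KO replicate 2), and it was called in each of these fits and without WT replicate 1 (-0.99), but not without WT replicate 2. Gene counts do not separate the splice forms.

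The fourth Fos gene, Fosl1, was not among the members; it had 6.86 and 8.33 CPM in WT and 2.00 and 5.22 CPM in KO. Its log2 fold change was -1.07 (SE 0.42, adjusted p = 0.12 by edgeR), and it was called without WT replicate 1 (-1.19) or KO replicate 2 (-1.93). On all 4 libraries Fosl1 was also called lower without a low-count filter (adjusted p = 0.0312 by edgeR) and by limma-voom (0.0223). Fosl1 shares 1163 exonic bases with Ccdc85b on the other strand, and without a stated strand setting reads of such pairs cannot be told apart.

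The make-up of the Fos group was compared per length, in the authors' RPKM (reads per kilobase of gene length, scaled to the library total as CPM is). The summed RPKM of Fos, Fosb, Fosl1 and Fosl2 was 182 and 176 in WT and 125 and 211 in KO, so the sum showed no separation of the groups. Within it the share of Fosl2 was 8.60% and 10.9% in WT and 1.20% and 1.25% in KO. The share of Fos was 68.1% and 62.2% in WT and 86.6% and 83.8% in KO, and that of Fosb 21.1% and 24.1% in WT and 11.3% and 13.5% in KO. These shares did not overlap between groups and, unlike the levels, were close in the 2 KO libraries. Shares of a sum depend on each other. In level, both KO libraries lay below both WT libraries in 28.1% of all tested genes and above in 27.8%. The Fos group shares rest on the values that chose the members and describe these libraries.

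**Figure D3:**
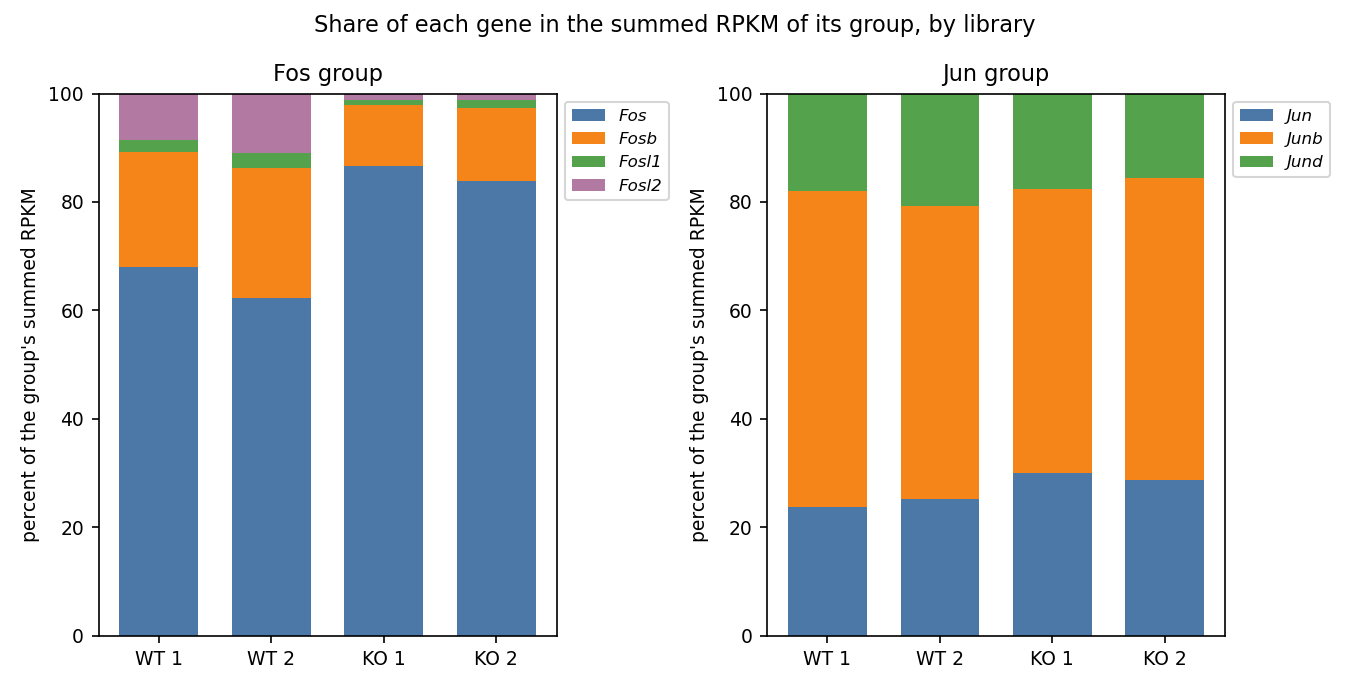
Share (percent, vertical axis) of each gene in the summed RPKM of the Fos group (left) and of the Jun group (right) in each of the 4 libraries. In the Fos group the Fosl2 share is 8.60% and 10.9% in WT and 1.20% and 1.25% in KO; in the Jun group Junb is the largest share in all 4 libraries.

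The Jun genes encode the obligate partners of the Fos proteins, and Junb and Jun were the most abundant members in all 4 libraries. Junb (ENSMUSG00000052837.6; chromosome 8, 84974484 to 84978718, minus strand) had 1406 and 1296 CPM in WT and 904 and 1287 CPM in KO. Its KO replicate 2 lay just below the lower WT library, and the log2 fold change of -0.30 (SE 0.19) was not called, although it was called without KO replicate 2 (-0.58). Junb shares 173 exonic bases with Prdx2, a peroxiredoxin gene on the other strand with 3377 to 3574 counts in WT and 4822 to 5282 in KO. Jun (ENSMUSG00000052684.4; chromosome 4, 95049034 to 95052222, minus strand) had 795 and 838 CPM in WT and 714 and 921 CPM in KO, with 1 KO library on each side of the WT pair. Its log2 fold change was 0.00 (SE 0.10) and its sign changed between settings. An antisense gene, Junos, overlaps 232 of its exonic bases and had 4 to 20 counts per library.

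Jund (ENSMUSG00000071076.6; chromosome 8, 70698949 to 70700616, plus strand), the Jun gene that is active also in resting cells, had 314 and 362 CPM in WT and 221 and 260 CPM in KO. The groups did not overlap, and the log2 fold change of -0.49 (SE 0.10) was called in the fit on all 4 libraries and in all 4 fits with 1 library left out (-0.36 to -0.62). The antisense gene Gm11175 overlaps 877 exonic bases of Jund and had 0 counts in every library. As shares of the summed RPKM of the Jun group, Jund made 17.9% and 20.8% in WT and 17.7% and 15.5% in KO. Jun made 23.8% and 25.2% in WT and 29.9% and 28.8% in KO, so that the groups of both genes did not overlap. For Jund the gap was narrow, 17.9% in WT replicate 1 against 17.7% in KO replicate 1. Shares of a sum depend on each other, and the level of Jun itself had a log2 fold change of 0.00. In level, both KO libraries lay below both WT libraries in 28.1% of all tested genes and above in 27.8%. Junb made 52.4% to 58.3% in the 4 libraries, with overlapping groups.

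Batf (ENSMUSG00000034266.6) encodes a small bZIP protein without an activation domain that pairs with Jun proteins and acts with Irf4 in effector T cells. It had 13.1 and 16.7 CPM in WT and 8.26 and 8.02 CPM in KO. Both KO libraries lay below WT, with a log2 fold change of -0.87 (SE 0.24). The call was lost without WT replicate 2 (-0.68), without KO replicate 1 (-0.87) and without KO replicate 2 (-0.85). Batf3 (ENSMUSG00000026630.9; chromosome 1, 191097847 to 191108945, plus strand), known for its role in dendritic cells, had 0 counts in 3 libraries and 15 counts (0.412 CPM) in KO replicate 2. It did not pass the filter, and 3 counts, the limit that a count of 0 allows, equal 0.0810 to 0.0837 CPM in these libraries for counting error only. Batf2, outside the member list, likewise had at most 12 counts.

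Atf3 (ENSMUSG00000026628.13; chromosome 1, 191170296 to 191218039, minus strand), a stress-induced repressor that pairs with Jun, was the lowest of the tested members, with 35 and 52 counts in WT and 18 and 18 in KO. The log2 fold change of -1.28 had an SE of 0.88 and was not called. Maff (ENSMUSG00000042622.14; chromosome 15, 79346621 to 79359076, plus strand) encodes a small Maf protein that has no activation domain and pairs with Fos or CNC proteins. It had 64.7 and 67.3 CPM in WT and 23.8 and 39.3 CPM in KO. KO replicate 2 was 1.65-fold above KO replicate 1 but remained below both WT libraries, and the log2 fold change was -1.06 (SE 0.19). It was called in all 4 fits with 1 library left out (-0.73 to -1.47).

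In WT, the order of the members per length was Junb (587 ± 33.8 RPKM, SD, n = 2), Jun (256 ± 9.63), Jund (202 ± 20.2), Fos (117 ± 10.02), Fosb (40.5 ± 2.78), Maff (25.5 ± 0.715), Fosl2 (17.5 ± 2.55), Batf (10.6 ± 1.84) and Atf3 (0.557 ± 0.147), with Batf3 listed at 0. By this measure Junb ranked 29 of 53715 genes, and no neighbours in the order overlapped in their 2 libraries. In KO, Junb (476 ± 118 RPKM) and Jun (256 ± 45.7) again came first, and Jund (144 ± 16.6) and Fos (142 ± 48.5) overlapped. Fosb (21.2 ± 10.2) and Maff (12.2 ± 4.23) overlapped as well, and Fosl2, at 2.06 ± 0.802, stood below Batf at 5.79 ± 0.12.

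The 2 KO libraries differed in many of the members. KO replicate 2 was above KO replicate 1 in 8 of the 9 tested members (all but Batf), and by at least 0.25 log2 units in 7, a size chosen after the values were seen. Across all tested genes 50.6% were higher in KO replicate 2 and 24.5% by that much, or 12.1% among the 9703 genes averaging 5 CPM or more. The median difference of the members was 0.53 log2 units, and between the WT replicates it was 0.13. Of 36 tested immediate early genes outside the family, 34 were higher in KO replicate 2 and 18 by at least 0.25 log2 units, with a median of 0.26. For 13 heat shock genes, which tissue dissociation is known to induce, the median was 0.10, and -0.08 between the WT replicates. Of these, 10 were higher in KO replicate 2 and 3 by at least 0.25 log2 units. The labels name no batch, and the part of this gap in the KO against WT differences was not tested beyond leaving out each library. Without KO replicate 1 and without KO replicate 2, log2 fold changes were -2.71 and -3.55 for Fosl2 and -0.73 and -1.47 for Maff. For Jund they were -0.36 and -0.62, for Fosb -0.49 and -1.53, and for Batf -0.87 and -0.85. Junb (-0.05 and -0.58) and Atf3 (-1.25 and -1.30) also stayed below 0. Fos (0.61 and -0.12) and Jun (0.19 and -0.19) changed sign.

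**Figure D4:**
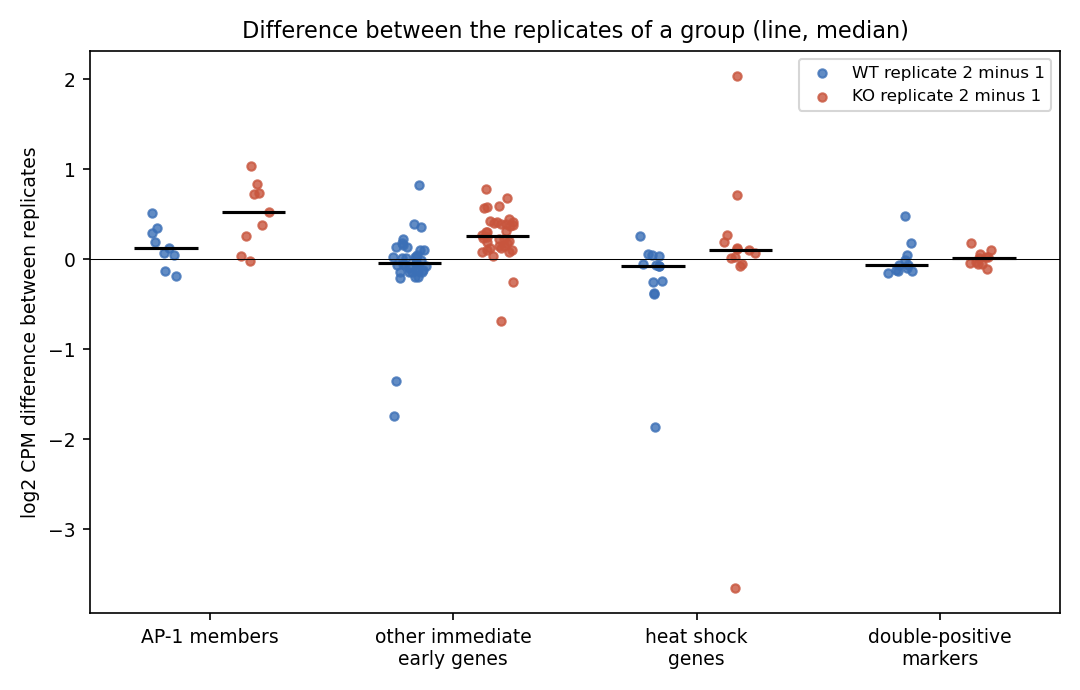
Difference in log2 CPM between replicate 2 and replicate 1 within WT (blue) and within KO (red), one point per tested gene, for the AP-1 members, other immediate early genes, heat shock genes and double-positive markers; black lines are medians. The KO differences of the members have a median of 0.53 and those of other immediate early genes 0.26, while WT medians lie at 0.13 and -0.04.

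The rest of the AP-1 and Maf family was read from a list drawn up with earlier results of these data known. Of its 10 genes, 8 were tested, 4 fell, 0 rose (7.89% and 6.63% of all tested genes were called lower and higher) and 4 did not pass the test, with a list median of -0.75 log2 units. Jdp2, a repressor that pairs with Jun proteins, had 18.5 and 15.3 CPM in WT but 4.83 and 5.28 CPM in KO. It fell by 1.74 log2 units (SE 0.25, adjusted p = 0.000592 by edgeR). The large Maf gene Maf, which encodes an activator, fell from 28.9 and 36.3 to 15.1 and 18.3 CPM (-0.96, SE 0.18). Among the small Maf genes, which like Maff lack an activation domain, Mafk fell by 0.30 log2 units (SE 0.07) from 401 ± 23.7 to 325 ± 6.39 CPM (SD, n = 2), and Mafg fell by 0.54 (SE 0.15). The Mafk call was lost without WT replicate 1 (-0.23), and the Mafg call whenever 1 library was left out (-0.53 to -0.54, adjusted p = 0.0744 to 0.12).

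Mafa (log2 fold change -1.26, SE 0.42, adjusted p = 0.0629 by edgeR), Atf2 (-0.15, SE 0.10) and Atf7 (-0.02, SE 0.11) did not pass the test. Mafa was called lower when KO replicate 1 (-2.21) or either WT library (-1.28 and -1.24) was left out. On all 4 libraries it was also called lower without a low-count filter (adjusted p = 0.00283 by edgeR), with a filter of 1 CPM (0.0313), by DESeq2 (0.0299) and by limma-voom (0.00536), but not without KO replicate 2 (-0.69). Atf2 and Atf7 encode partners of Jun at the cAMP response element. Nrl and Batf2 did not pass the filter. Jdp2, Maf, Mafk, Mafg, Atf2 and Atf7 share exonic bases with other annotated genes, 124 in Mafg to 1284 in Atf7. The plot of fold changes shows the 17 tested genes of both lists.

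**Figure D5:**
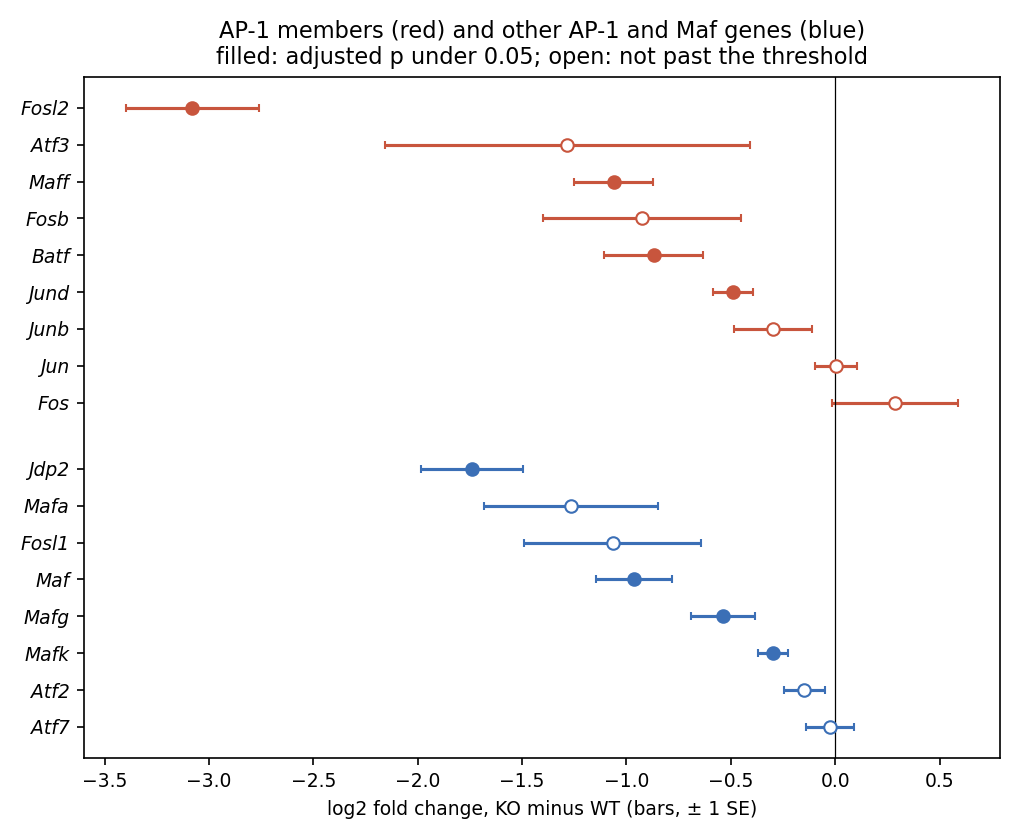
Log2 fold change, KO minus WT, with bars of 1 SE, for the tested AP-1 members (red) and the other AP-1 and Maf genes (blue); filled points had an adjusted p under 0.05 by edgeR. Fosl2 (-3.08) and Jdp2 (-1.74) lie lowest, and Jun and Atf7 lie nearest to 0.

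Fos, Jdp2 and Batf are neighbours on chromosome 12, all on the plus strand. From Fos (85473890 to 85477273, GRCm38), Jdp2 starts 122 kb further on (85599027 to 85639878) and Batf 46.8 kb beyond the end of Jdp2 (85686669 to 85709087). Of the 6 annotated genes from Fos to Batf, 4 were tested and 2, Jdp2 and Batf, were called lower. Across all tested genes 7.89% were called lower. Since both genes come from lists drawn up with earlier results known, nothing is read from this count. The other tested gene besides Fos was Gm47863, a noncoding gene that starts beside Jdp2 on the other strand, with 51 and 36 counts in WT and 16 and 1 in KO (-2.38, SE 1.20, adjusted p = 0.227 by edgeR). It shares 165 exonic bases with Jdp2. Atf3 and Batf3 form a second close pair, 61.4 kb apart on chromosome 1.

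Among 23 further bZIP genes, 8 fell and 4 rose (7.89% and 6.63% of all tested genes were called lower and higher). The other 11 did not pass the test, and the list median was -0.45 log2 units. Without KO replicate 2 the split was 12 lower and 2 higher, and without WT replicate 1 it was 7 lower and 2 higher. Bach1, a repressor that pairs with small Maf proteins such as Maff, fell from 812 and 843 CPM in WT to 393 and 389 CPM in KO (-1.08, SE 0.07, adjusted p = 1.14e-06 by edgeR). Cebpb, which encodes an inducible bZIP activator, fell from 133 and 137 to 69.6 and 82.0 CPM (-0.83, SE 0.10). Crem, whose forms bind the cAMP response element, fell from 28.7 and 30.2 to 11.4 and 13.9 CPM (-1.22, SE 0.18). In the other direction Creb1, which encodes an activator at that element, rose from 200 and 208 to 330 and 325 CPM (0.69, SE 0.07, adjusted p = 7.9e-05 by edgeR). Cebpb and Crem share exonic bases with other annotated genes.

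Of the MAP kinases and serum response factors that act upstream of AP-1, 25 of 27 were tested, 5 fell and 3 rose (7.89% and 6.63% of all tested genes were called lower and higher), and the list median was 0.04 log2 units. Without WT replicate 2 the split was 3 lower and 3 higher, without WT replicate 1 it was 5 and 2, and without KO replicate 2 it was 4 and 2. Mapk9 and Mapk8, which encode the Jun kinases JNK2 and JNK1, fell: Mapk9 from 187 and 193 to 115 and 106 CPM (-0.78, SE 0.08, adjusted p = 6.92e-05 by edgeR), and Mapk8 from 98.8 and 94.8 to 58.9 and 61.8 CPM (-0.68, SE 0.10, adjusted p = 0.000583). Elk4, a partner of serum response factor, rose from 180 and 190.5 to 247 and 250.2 CPM (0.43, SE 0.08). Rps6ka1, an ERK-activated kinase, rose from 35.1 and 41.2 to 57.3 and 53.8 CPM (0.54, SE 0.13), a call lost without WT replicate 1 (0.44). Both share exonic bases with other genes.

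Of 15 genes of AP-1 protein turnover and cofactors, 1 fell, 1 rose and 13 did not pass the test. Across all tested genes 7.89% were called lower and 6.63% higher. Fbxw7, the ubiquitin ligase subunit that marks phosphorylated Jun, fell from 107 and 114 to 75.7 and 83.0 CPM (-0.48, SE 0.09, adjusted p = 0.00453 by edgeR). Ndfip1, an activator of the ligase Itch, rose from 44.8 and 48.8 to 67.5 and 63.8 CPM (0.49, SE 0.11). Without KO replicate 2 the list had 4 lower calls and 1 higher. Of 9 NFAT, IRF and Runx genes that act beside AP-1, 2 fell, where 7.89% of all tested genes were called lower. Irf4, the partner of Batf, fell from 16.8 and 16.4 to 8.59 and 8.85 CPM (-0.93, SE 0.22, adjusted p = 0.0129), and Runx3 fell from 29.0 and 35.3 to 20.1 and 15.0 CPM (-0.87, SE 0.19).

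Immediate early genes outside the bZIP family include the Egr, Nr4a and Ier genes. Of 36 tested, 12 fell and 1 rose (7.89% and 6.63% of all tested genes were called lower and higher). The other 23 did not pass the test, and the list median was -0.15 log2 units. The 4 with the smallest adjusted p were Nr4a3 (log2 fold change -2.49, SE 0.09), Nr4a2 (-1.19, SE 0.10) and Nr4a1 (-0.91, SE 0.09), orphan nuclear receptors induced by receptor signals, and the kinase gene Sik1, which went from 1890 and 1780 to 894 and 1049 CPM (-0.91, SE 0.08). Without KO replicate 1 the same list had 14 lower and 8 higher calls, and without KO replicate 2 16 lower and 0 higher.

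Of 27 T cell genes with known AP-1 sites, 18 were tested, 4 fell, 2 rose and 12 did not pass the test. Across all tested genes 7.89% were called lower and 6.63% higher. Without KO replicate 2 the split was 5 lower and 0 higher, and without WT replicate 1 it was 6 lower and 2 higher. Log2 fold changes in the list ran from -1.82 to 1.36, with a median of -0.49. The 4 genes with the smallest adjusted p, which are named here, all fell. Bcl2l11, which encodes the death factor Bim, fell by 1.36 log2 units (SE 0.08). The costimulatory and inhibitory receptor genes Icos (17.8 and 20.3 against 8.69 and 8.82 CPM) and Ctla4 (19.99 and 19.4 against 9.56 and 6.40 CPM) fell too, with log2 fold changes of -1.12 (SE 0.21) and -1.30 (SE 0.24). Plaur, the urokinase receptor gene, fell from 10.6 and 14.8 to 4.81 and 2.36 CPM (-1.82, SE 0.35, adjusted p = 0.0043 by edgeR). Of 13 heat shock genes 2 fell, Dnajb4 (-0.50, SE 0.09) and Hspa5 (-0.27, SE 0.07), and 0 rose, beside the same 7.89% and 6.63% of all tested genes. The Hspa5 call was lost without WT replicate 1 (-0.24) or WT replicate 2 (-0.28). Without KO replicate 1 that list had 3 lower and 2 higher calls, and without WT replicate 2 it had 1 lower call.

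For the 3 most abundant called members, the tested genes of at least 5 CPM with the most similar profile were found by the root mean square distance of centred log2 CPM over the 4 libraries, among 9695 genes. Nearest to Fosl2 were Rasgef1b (distance 0.11 log2 units; 16.3, 16.5, 1.43 and 2.67 CPM in WT replicates 1 and 2 and KO replicates 1 and 2), Fst (0.21) and Gfpt2 (0.27), with log2 fold changes of -3.00, -2.95 and -3.25. Nearest to Maff were Mn1 (0.06), Adcy1 (0.07) and Klf4 (0.07), and Klf4 had 169 and 199 CPM in WT and 70.5 and 112 CPM in KO. Klf4 was not called (adjusted p = 0.0586 by edgeR). Nearest to Jund were RP23-26P10.1, Tnip2 and Rap2b (each 0.02), and none of these was called in the main fit. Rap2b lay close to the threshold there (adjusted p = 0.0584 by edgeR). On all 4 libraries it was called lower with both other filters, by DESeq2 (adjusted p = 0.0377), by limma-voom (0.0246) and with the replicate block. It was not called with the other scalings or by limma on RPKM. Fst and Rap2b share exonic bases with other annotated genes, Rap2b 3702 of them with B430305J03Rik on the other strand. With 4 libraries in 2 groups such likeness follows mostly the group difference.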

How the data were processed

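Deposited data were raw counts per gene for each of 4 libraries and a table of RPKM values with gene lengths. Per the submitters' processing notes, the authors used FastQC 0.11.5, cutadapt 1.17, STAR 2.6.0a, HTSeq 0.6.1 and DESeq2 1.24.0 with GRCm38 (mm10); strand setting and annotation release: not given in the sources used here. Each deposited RPKM value equals count over gene length and library total within a relative tolerance of 1e-06. The deposited counts went into edgeR 4.0.16 (R 4.3.3) with its default low-count filter filterByExpr and TMM scaling; genotype alone was tested by quasi-likelihood with robust dispersion, two-sided, with Benjamini-Hochberg adjustment over 16588 genes and a call at an adjusted p under 0.05. SEs come from the fold change and the F statistic. Differences between replicates and profile distances used log2 CPM after TMM scaling, with a prior count of 2. Alternatives were other scaling factors, other filters, DESeq2 1.42.0, limma-voom, a replicate block, limma 3.58.1 on log2 of RPKM plus 0.5 or 0.1, and leaving out each library. In fits without 1 library the lone sample of a group is assumed to vary like the other group.

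Members and lists were chosen with earlier results of these data known. The rule for other named genes took every tested gene of the AP-1 and Maf list, up to 4 called genes with the smallest adjusted p from each other list, Srsf1 and the 3 nearest profiles; Gm47863, Batf2 and Nrl were named after their values were seen. A gene of the AP-1 and Maf list is not reported here and is left out of its counts. Coordinates come from GENCODE release 21 for mouse (GRCm38), matched for 53620 of 53715 gene identifiers without version. Replicate libraries differed by more than counting noise (chi-square per degree of freedom 16.7 in WT and 19.0 in KO). Figures were drawn with matplotlib 3.10.9 in Python 3.11.15.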

Additional observations from a re-analysis of the deposited data

How the results depend on the processing

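With 2 libraries per group, the calls rested on few replicates. Counts per library were 0 to 15 for Batf3, 18 to 52 for Atf3 and 292 to 611 for Batf, and at least 535 for the other members. The 4 member calls (Fosl2, Jund, Batf and Maff) were made under the 3 other scalings, both other filters, DESeq2 and limma-voom as well. Limma on log2 of the RPKM plus 0.5 over all 25133 genes with a count called 0 genes and 0 members (4289 genes and 4 members at an unadjusted p under 0.05, smallest adjusted p 0.0678), and with 0.1 added again 0 genes and 0 members (4370 and 5, smallest adjusted p 0.0523), so every list had 0 calls there. Limited to the 11785 genes averaging 1 RPKM or more, limma called 1104 genes (2408 in the edgeR fit) and 2 members, Fosl2 and Batf. In that fit it called 1 of the other AP-1 and Maf genes (4 by edgeR), 7 other bZIP genes (12), 4 upstream genes (8), 3 T cell genes (6), 1 heat shock gene (2) and 0 NFAT, IRF and Runx genes (2). The turnover list had 4 calls, instead of 2, without a filter, with a filter of at least 1 CPM, by DESeq2 and by limma-voom.

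With 1 library left out, the number of calls was 1980 to 2697 for all genes and 2 to 6 for members. It was 2 to 5 for the turnover list, 12 to 22 for immediate early genes and 1 to 5 for heat shock genes; in the other lists the total stayed within 1.5 times, while the split into higher and lower calls moved more in 3 of them (further bZIP, upstream and T cell genes). Fos lay between -0.12 (without KO replicate 2, a change of sign) and 0.61 log2 units. Jun, at 0.0049 log2 units, turned to -0.002 with the filter of 1 CPM, -0.0095 by limma-voom, -0.0075 with the replicate block, -0.0094 on both RPKM scales and with the RPKM minimum, -0.026 without WT replicate 1 and -0.19 without KO replicate 2, and was 0.19 at most with 1 library left out. Atf7 lay between -0.11 and 0.073, above 0 without WT replicate 2 (0.055) or KO replicate 2. The cause of these differences was not tested. The labels do not say whether same-numbered WT and KO replicates share more than a number. Their deviations from the group means had a correlation of -0.04 across 16588 genes, and whether they share a batch was not tested further. With the replicate block as a term in edgeR, 2809 genes and 6 members (Fosb and Junb besides the 4) were called. Mafa (-1.43, adjusted p 0.000345) and Fosl1 (-1.21, 0.0074) were called there too. DESeq2 gave no adjusted p for Atf3. In 133 settings of single members the direction and side of the threshold were kept in 101, and in 489 of 599 for the other named genes.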
